A study of Mus musculus with 2 samples.

Results

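Neuropeptides made within the pituitary were followed through 10 precursor genes, Vip, Gal, Nmb, Nts, Tac1, Cartpt, Adcyap1, Penk, Pdyn and Vgf, out of 47069 genes in the table. The genes were chosen by name, as precursors of peptides known to be made in the gland and with earlier results of these data known. The rule itself uses no measured value. All 10 were found in the table and all had at least 1 read in both libraries.

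Bulk RNA-seq of polyadenylated RNA was performed on 2 samples of primary pituitary cells, 1 preserved in RNA-Best and 1 in RNAlater. RNA-Best is a stabilization buffer that keeps the RNA inside intact single cells, and RNAlater is an established RNA stabilizer, used here as the reference, that does not keep single cells intact. Both samples came from randomly cycling C57BL/6 female mice aged 10 to 12 weeks by the growth protocol (a sample tag adds 3 weeks to the cycling status without saying what they count), whose whole pituitaries were digested with collagenase, dispersed with pancreatine, washed and placed in serum-containing medium. Each sample pooled 500000 to 700000 cells of 5 pituitaries and went at once into its stabilizer. The labels name no genetic change and no hormone treatment for either group.

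The RNA-Best library held 53915047 counts and the RNAlater library 44917492, so that a floor of 3 counts, the one-sided 95% limit for a count of 0, equals 0.0556 and 0.0668 CPM (counts scaled to a common library total). With 1 library per stabilizer no difference has a replicate check, no test between stabilizers was possible, and the stabilizer, the pooled animals and the library preparation cannot be told apart. All intervals are 95% intervals that cover counting error only. In bulk RNA, fewer cells of a type and less RNA per cell cannot be told apart either. The pituitary label was checked against hormone genes. All 7 listed (Prl, Gh, Pomc, Cga, Lhb, Fshb and Tshb) were present, with a sum of 307051 CPM in RNA-Best against 239085 CPM in RNAlater.

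Neuropeptides are cut from longer precursor proteins in the secretory pathway, at pairs of basic residues, and are often amidated at the end before they are stored in granules. Most act on G protein-coupled receptors of nearby cells or of the same cell. In the pituitary they are known as local signals between endocrine cells, and some also reach the posterior lobe in the axons of hypothalamic neurons, whose RNA stays mostly in the cell bodies outside the gland.

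The coding sequences show how several members relate to each other. Reading frames of the GENCODE M21 transcripts were searched for the enkephalin core, the 5 codons of Met-enkephalin or Leu-enkephalin in any synonymous spelling, directly after 2 codons for lysine or arginine. Penk held 7 such cores, Pdyn 3 and Pomc, the precursor of adrenocorticotropin and beta-endorphin, 1. These were 3 of 21538 coding sequences (0.0139%). The first and the sixth core of Penk, in its methionine and its leucine form, and the 3 cores of Pdyn, all in the leucine form, are printed with the core in capitals and the flanking codons in lower case.
Penk enkephalin 1: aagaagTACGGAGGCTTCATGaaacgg
Penk enkephalin 6: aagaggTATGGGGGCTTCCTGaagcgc
Pdyn enkephalin 1: aaacgcTATGGCGGCTTTTTGcgcaaa
Pdyn enkephalin 2: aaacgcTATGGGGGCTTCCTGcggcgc
Pdyn enkephalin 3: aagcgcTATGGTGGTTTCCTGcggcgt

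Tac1 held 2 tachykinin cores, which end substance P and neurokinin A. The core searched was that shared by the tachykinins, 5 codons of which the second may be any, followed by a glycine codon and a basic codon that signal amidation and cleavage, and it is marked in capitals. Tac2 and Tac4 held 1 each, again 3 of 21538 coding sequences (0.0139%).
Tac1 tachykinin 1: cagcagTTCTTTGGATTAATGggcaagcgg
Tac1 tachykinin 2: gattccTTTGTTGGACTAATGggcaaaaga

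Vip and Adcyap1 encode vasoactive intestinal peptide and PACAP, which belong to the same peptide family. Over the first 27 codons of each mature peptide, 62 of 81 bases (76.5%) and 19 of 27 encoded residues were the same. Capitals mark the 19 bases that differ.
Vip first 27 codons: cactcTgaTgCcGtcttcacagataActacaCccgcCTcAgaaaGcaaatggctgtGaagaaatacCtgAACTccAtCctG
Adcyap1 first 27 codons: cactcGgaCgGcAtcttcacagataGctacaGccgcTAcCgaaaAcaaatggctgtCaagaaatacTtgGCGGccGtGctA

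Gal encodes galanin, and its mature peptide is printed in capitals with the amidation and cleavage codons in lower case, because Gal had the highest level of the 10 genes in both libraries.
Gal galanin: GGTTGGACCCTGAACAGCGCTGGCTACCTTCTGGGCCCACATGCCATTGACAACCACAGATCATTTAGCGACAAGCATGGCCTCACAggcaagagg

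The 10 precursors spanned more than 3 orders of magnitude in level. To compare genes, CPM was divided by the length in kb of the longest annotated transcript. Gal stood first at 150 CPM per kb in RNA-Best and 139 in RNAlater, followed by Vgf at 20.7 and 30.8 CPM per kb and Penk at 9.24 and 8.68 CPM per kb. At the other end, Nts reached 0.104 and 0.232 CPM per kb and Adcyap1 0.0219 and 0.0656 CPM per kb. These first 3 and last 2 places were the same in both libraries and with lengths from merged exons or from the median transcript.

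The 5 genes in the middle lay close together. In RNA-Best their order was Vip (4.28 CPM per kb), Nmb (3.74), Tac1 (2.81), Pdyn (2.39) and Cartpt (1.87). In RNAlater it was Tac1 (4.09 CPM per kb), Vip (3.49), Nmb (3.47), Pdyn (2.88) and Cartpt (1.87). Counting intervals of neighbours overlapped between Vip and Nmb and along Tac1, Pdyn and Cartpt in RNA-Best, and along Tac1, Vip, Nmb and Pdyn in RNAlater. The places also depended on the length used, and with the median transcript Pdyn followed Penk directly in both libraries.

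**Figure D1:**
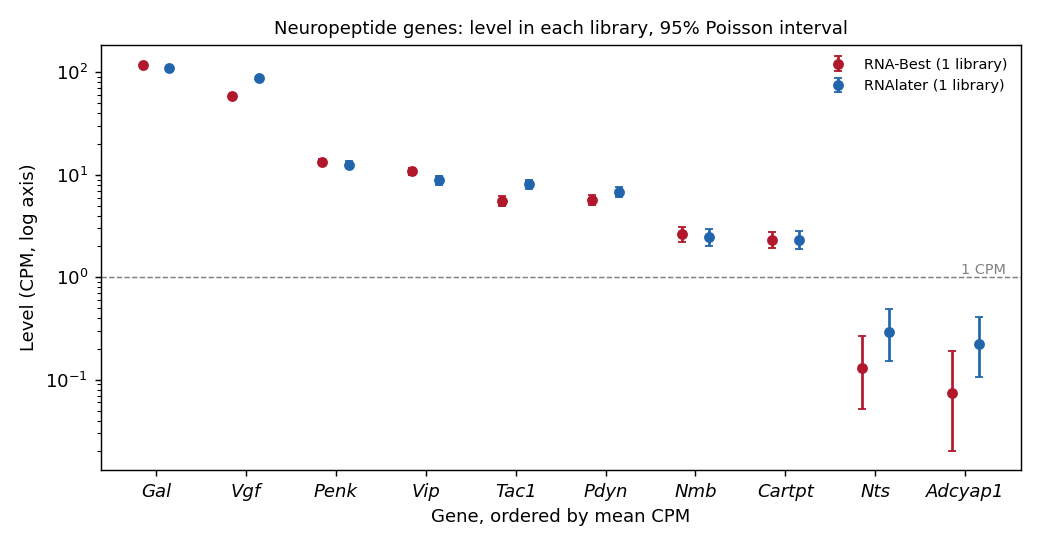
Level of each of the 10 precursor genes in CPM, not divided by length, on a log axis, with genes ordered by mean CPM. There is 1 point per library, with bars for the 95% Poisson interval of the count (counting error only) and a dashed line at 1 CPM. Gal stands highest at 118 CPM in RNA-Best and 109 in RNAlater, and Nts and Adcyap1 lie below 1 CPM in both.

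The comparison of the libraries asked whether peptide messages were kept alike by the 2 stabilizers. Ratios are given as log2 of RNA-Best to RNAlater after adding 0.5 CPM to both. Genes were kept if both libraries averaged 1 CPM or more, and intervals of ratios come from the counts without the added 0.5 CPM. Of the 10 members, 8 passed this filter and Nts and Adcyap1 did not. Among the 8, 3 were lower and 5 higher in RNA-Best, beside 67.0% of the 16504 genes tested that were lower. None was at least 2-fold lower, beside 4.99% of genes tested, and none at least 2-fold higher, beside 0.273%. The interval lay wholly below 0 for 3 members (Vgf, Tac1 and Pdyn), beside 51.2% of genes tested, and wholly above 0 for 2 (Vip and Gal), beside 20.2%. The median log2 ratio of the 8 was 0.04, and that of all genes tested was -0.18, with members from -0.57 to 0.28. Scaling by edgeR's or DESeq2's factors, or without the 2 most abundant genes, moved the median of all genes by 0.12 to 0.17 and that of the 8 members to between 0.15 and 0.20, with 3 of the 8 still lower. Under each of these scalings the interval of Pdyn came to include 0 and that of Penk to lie above 0. The interval was then wholly below 0 for 2 members, beside 35.8% to 40.3% of genes tested, and wholly above 0 for 3, beside 29.1% to 34.1%.

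Summed over the 10 genes, 11718 counts in RNA-Best and 10713 in RNAlater belonged to these precursors. They made up 0.0217% of counts (95% exact binomial interval 0.0213% to 0.0221%) in RNA-Best and 0.0239% (0.0234% to 0.0243%) in RNAlater, a ratio of 0.911. This ratio holds for column totals only, by which the RNA-Best library was 1.20 times as large as the other. With edgeR's or DESeq2's factors that size ratio was 1.06, and without the 2 most abundant genes 1.10. The precursor ratio is higher under each of these scalings, so no smaller precursor pool in RNA-Best is concluded from it. Gal alone supplied 6363 of the precursor counts in RNA-Best and 4915 in RNAlater.

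**Figure D2:**
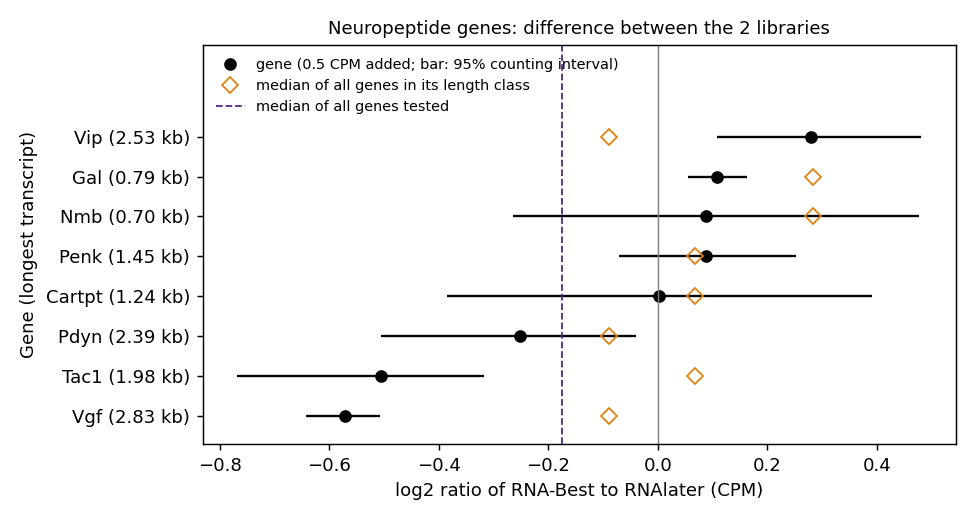
Log2 ratio of RNA-Best to RNAlater for the members, with bars for the 95% counting interval of the ratio (counting error only), a diamond at the median of all genes in its length class, a line at 0 and a dashed line at the median of all genes tested (-0.18). Vgf (-0.57) and Tac1 (-0.51) lie farthest below 0 and Vip (0.28) farthest above.

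Gal (ENSMUSG00000024907.7, chr19:3409915-3414544, minus strand, GRCm38) encodes galanin, a peptide known in lactotrophs, where estrogen raises it. Its 6363 counts gave 118 CPM (115 to 121) in RNA-Best, and its 4915 counts 109 CPM (106 to 113) in RNAlater. RNA-Best was slightly higher, with a log2 ratio of 0.11 (0.06 to 0.16). With the other scalings the ratio was 0.24 to 0.29 (interval 0.24 to 0.35 with DESeq2's factors). The gene is also short, with a longest transcript of 788 bases, and the median log2 ratio of the 2089 genes of up to 1 kb was 0.28.

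Vip (ENSMUSG00000019772.5, chr10:5639218-5647617, plus strand) encodes vasoactive intestinal peptide, which stimulates prolactin release. It had 584 counts, 10.8 CPM (9.97 to 11.7), in RNA-Best and 397 counts, 8.84 CPM (7.99 to 9.75), in RNAlater. The intervals did not overlap, and the log2 ratio of 0.28 (0.11 to 0.48), 1.21-fold, was the highest of the 8. It stood at the percentile 86.7 of all genes tested. With the other scalings the log2 ratio was 0.40 to 0.45. The study's Vip assay, a PCR on other samples, used a forward primer gcctctctttggaccacctt and a reverse primer ctccttcaaacggcatcct, which both lay in the coding sequence and bounded 62 bases of it.

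Adcyap1 (ENSMUSG00000024256.7, chr17:93199017-93206537, plus strand) encodes PACAP, a hypothalamic releasing peptide that is also made in gonadotrophs. RNA-Best gave 4 counts, 0.0742 CPM (0.020 to 0.190), and RNAlater 10 counts, 0.223 CPM (0.107 to 0.409). Both counts were above the floor of 3. The interval of the log2 ratio, -3.71 to 0.21, included 0, so that no difference was detectable at this depth.

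Tac1 (ENSMUSG00000061762.12, chr6:7554879-7565834, plus strand) encodes the tachykinins substance P and neurokinin A. It was lower in RNA-Best, with 299 counts, 5.55 CPM (4.93 to 6.21), against 363 counts, 8.08 CPM (7.27 to 8.96), in RNAlater. The intervals did not overlap, and the log2 ratio was -0.51 (-0.77 to -0.32), 0.705-fold. With the other scalings it was -0.39 to -0.33.

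The opioid precursors Penk and Pdyn differed in ratio. Penk (ENSMUSG00000045573.9, chr4:4133531-4138819, minus strand), the enkephalin precursor, had 722 counts, 13.4 CPM (12.4 to 14.4), in RNA-Best and 565 counts, 12.6 CPM (11.6 to 13.7), in RNAlater. Its log2 ratio was 0.09, with an interval of -0.07 to 0.25 that included 0, while with the other scalings it was 0.21 to 0.26 and each interval lay above 0 (0.06 to 0.38 without the 2 most abundant genes). Its exons overlap 233 bases of A830012C17Rik on the opposite strand, and the strand setting of the counting is not given in the sources used here, so reads of that stretch are uncertain. Pdyn (ENSMUSG00000027400.11, chr2:129686565-129699844, minus strand), the dynorphin precursor, known in gonadotrophs, had 307 counts, 5.69 CPM (5.07 to 6.37), in RNA-Best and 309 counts, 6.88 CPM (6.13 to 7.69), in RNAlater. The CPM intervals overlapped, while the log2 ratio of -0.25 had an interval of -0.51 to -0.04. With the other scalings it was -0.13 to -0.08, and each interval included 0 (-0.32 to 0.14 with DESeq2's factors). Penk outnumbered Pdyn 2.35 to 1 in RNA-Best counts and 1.83 to 1 in RNAlater counts, a change of 1.29-fold (1.06 to 1.57).

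Vgf (ENSMUSG00000037428.14, chr5:137026392-137033351, plus strand) encodes a granin-like precursor that is induced by growth factors and yields several peptides. It had the lowest ratio of the 8, not separated from that of Tac1 by counting error, with 3165 counts, 58.7 CPM (56.7 to 60.8), in RNA-Best and 3927 counts, 87.4 CPM (84.7 to 90.2), in RNAlater. The log2 ratio was -0.57 (-0.64 to -0.51), 0.673-fold, at the percentile 19.4 of all genes tested. With the other scalings it was -0.44 to -0.39 (interval -0.46 to -0.32 with DESeq2's factors). The reading frame of Vgf, of 617 codons, is the longest of the 10, beside 129 codons for Cartpt, the shortest. The study's primer list also held a Vgf pair, which was not found complete in any annotated coding transcript of Vgf.

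Nmb, Cartpt and Nts were low. Nmb (ENSMUSG00000025723.12, chr7:80902227-80905076, minus strand), the precursor of neuromedin B, a bombesin-like peptide known to restrain thyrotropin release, had 142 counts, 2.63 CPM (2.22 to 3.10), in RNA-Best and 110 counts, 2.45 CPM (2.01 to 2.95), in RNAlater. Its log2 ratio of 0.09 (-0.26 to 0.48) did not differ from 0 beyond counting error, and 163 bases of its exons are shared with Sec11a on the same strand. Cartpt (ENSMUSG00000021647.7, chr13:99898489-99901091, minus strand), the precursor of the CART peptides of feeding and stress circuits, reached 2.32 CPM in both libraries, from 125 counts in RNA-Best (1.93 to 2.76 CPM) and 104 counts in RNAlater (1.89 to 2.81 CPM), with a log2 ratio of 0.00 (-0.38 to 0.39).

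Nts (ENSMUSG00000019890.4, chr10:102481756-102490486, minus strand), the neurotensin precursor, had 7 counts in RNA-Best, 0.130 CPM (0.052 to 0.268), and 13 in RNAlater, 0.289 CPM (0.154 to 0.495). The interval of its log2 ratio, -2.72 to 0.27, included 0. Its level was under 1 CPM in both libraries, as was that of Adcyap1.

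Ratios between members within a library do not depend on how the libraries are scaled. Pairs are given as examples, chosen after their values were seen and without correction for the 28 pairs possible among the 8 members. Gal exceeded Vgf 2.01 to 1 in RNA-Best counts and 1.25 to 1 in RNAlater counts, a change of 1.61-fold (1.51 to 1.71). Vip to Tac1 went from 1.09 in RNAlater to 1.95 in RNA-Best, a change of 1.79-fold (1.46 to 2.19). Gal to Penk was 8.81 in RNA-Best and 8.70 in RNAlater, a change of 1.01-fold (0.900 to 1.14), whose interval included 1. For Tac1 to Vgf the change was 1.02-fold, with an interval of 0.868 to 1.20 that included 1, and for Pdyn to Vgf it was 1.23-fold (1.04 to 1.46), which did not.

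Transcript length moved with the ratio. Over all genes tested, the median log2 ratio went from 0.28 in transcripts of up to 1 kb through -0.09 at 2 to 3 kb to -0.90 above 10 kb. Spearman's rho between ratio and length was -0.638 across the 16504 genes and -0.429 across the 8 members, given as a description, since genes of the same libraries are not independent. After the median of its own length class was subtracted, Vip stood at 0.37, Penk at 0.02, Cartpt at -0.07, Pdyn at -0.16, Gal at -0.17, Nmb at -0.20, Vgf at -0.48 and Tac1 at -0.57. Vip, Vgf and Pdyn all fall in the class of 2 to 3 kb (2532, 2834 and 2386 bases) and still ranged from -0.57 to 0.28 before subtraction. These classes use the longest annotated transcript. The median transcripts of Pdyn and Tac1 are 647 and 980 bases, in the class of up to 1 kb, so their subtracted values depend on the length used. The part of length in these ratios was not tested.

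**Figure D3:**
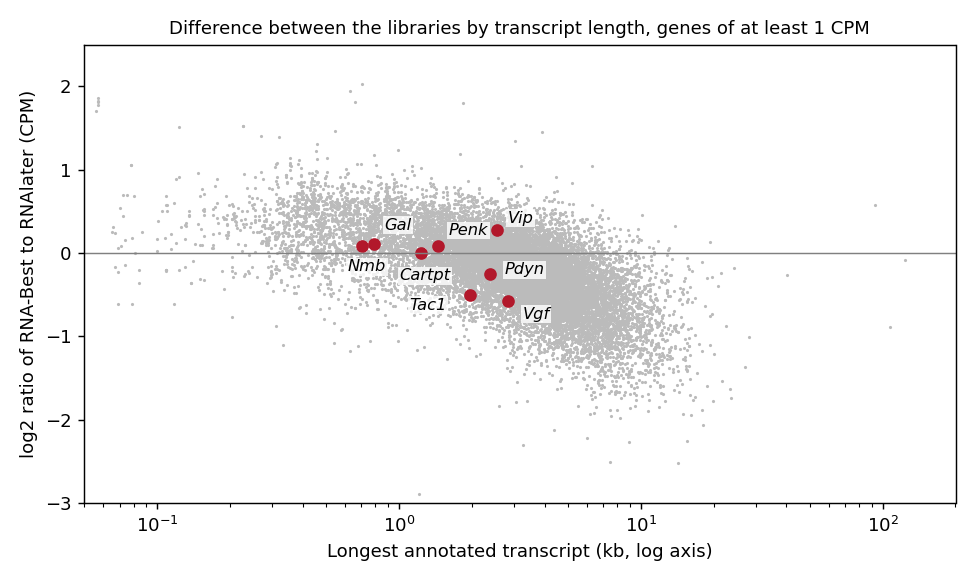
Log2 ratio of RNA-Best to RNAlater against the length of the longest annotated transcript in kb, on a log axis, for the 16504 genes tested (grey) and the 8 members among them (red, labelled), with a line at 0. Longer genes lie lower, and at lengths of 2386 to 2834 bases Vip lies at 0.28, Pdyn at -0.25 and Vgf at -0.57.

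Receptors for these peptides were mostly at low levels. Of 16 listed, 15 were found, and Galr3 was not analysed here. Of these, 3 averaged 1 CPM or more. Sort1, a sorting receptor that also binds neurotensin, was at 67.1 CPM in RNAlater and 41.9 CPM in RNA-Best (log2 ratio -0.67, interval -0.76 to -0.60). Adcyap1r1, the PACAP-preferring receptor, was at 14.4 CPM in RNAlater and 8.33 CPM in RNA-Best (log2 ratio -0.76, interval -0.97 to -0.62). Oprk1, the kappa opioid receptor at which dynorphins act, was at 1.65 CPM in RNAlater and 1.09 CPM in RNA-Best (log2 ratio -0.43, interval -1.11 to -0.08). All 3 were lower in RNA-Best, with a median of -0.67, beside 67.0% of genes tested that were lower. All 3 have long transcripts, of 6.84, 6.11 and 4.68 kb, in classes with medians of -0.65, -0.65 and -0.40.

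The other 12 receptors were under 1 CPM on average. In RNA-Best and RNAlater, the substance P receptor Tacr1 had 38.5 and 47.0 estimated counts, and the neurokinin B receptor Tacr3 22 and 36. Of the receptors shared by VIP and PACAP, Vipr1 had 34 and 31 counts and Vipr2 21 and 31.2. The galanin receptors Galr1 and Galr2 had 18 and 20 and 13 and 25 counts. The neurotensin receptor Ntsr2 had 12 and 6 counts. Ntsr1, Nmbr, Tacr2, Oprm1 and Oprd1 had between 0 and 4 counts in either library, at or near the floor of 3 counts.

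The enzymes that cut and trim the precursors also serve the hormone precursors of the gland. The list also held Scg5 and Pcsk1n, which do not encode such enzymes. All 9 genes listed passed the filter, with a sum of 3131 CPM in RNA-Best against 2841 CPM in RNAlater. Scg5 and Pcsk1n supplied 1115 and 465 CPM of this sum in RNA-Best and 802 and 468 CPM in RNAlater. Of the 9 genes, 4 were higher and 5 lower in RNA-Best, beside 67.0% of genes tested that were lower. Their median log2 ratio was -0.01. Scg5, which encodes the chaperone of the prohormone convertase encoded by Pcsk2, was highest in ratio (1115 CPM in RNA-Best against 802 CPM in RNAlater, log2 ratio 0.48, interval 0.46 to 0.50). Cpd, which encodes a carboxypeptidase, was lowest (32.9 CPM in RNA-Best against 67.2 CPM in RNAlater, log2 ratio -1.02, interval -1.12 to -0.95).

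Other neuropeptide and peptide hormone precursors were listed for comparison. Of 47 listed, 46 were found, 38 had a read and 9 passed the filter. Of these, 3 were higher and 6 lower in RNA-Best, beside 67.0% of genes tested that were lower. Their median log2 ratio was -0.29. The 5 highest per length were Nucb2, the nesfatin precursor, at 127 CPM per kb in RNA-Best and 112 in RNAlater, Adm (adrenomedullin) at 8.91 and 11, Oxt (oxytocin) at 4.29 and 10.1, Apln (apelin) at 6.72 and 8.40, and Nppc (C-type natriuretic peptide) at 5.14 and 5.36. Per kb of the longest transcript, Gal was thus above all of these in both libraries and Vgf above all but Nucb2. The order of Gal and Nucb2 depended on the length used and reversed with the median transcript (730 bases for Gal, 1124 for Nucb2). In CPM not divided by length, Nucb2 was also higher, at 243 CPM in RNA-Best and 215 in RNAlater, against 118 and 109 CPM for Gal. Oxt, whose RNA is made in hypothalamic neurons, had the lowest log2 ratio, -1.08 (-1.56 to -0.92), but its counts were not whole numbers, so that reads were divided between features and its value is uncertain. The counts of Adm, 667.5 in RNA-Best and 685.25 in RNAlater, were not whole numbers either. Nmu (neuromedin U) had the highest, 0.45 (0.11 to 1.12), on 97 and 53 counts.

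**Figure D4:**
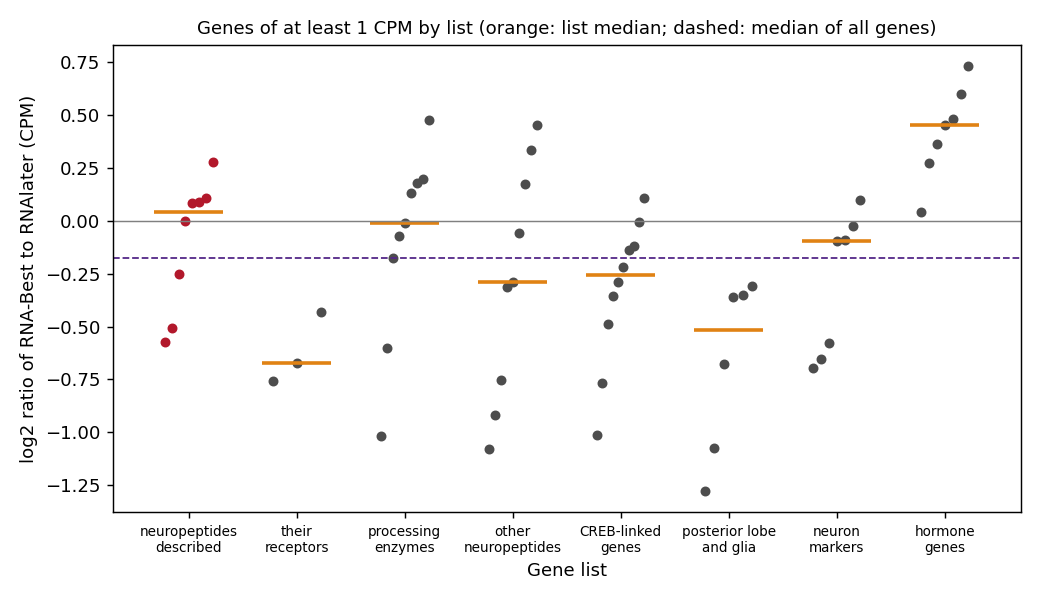
Log2 ratio of RNA-Best to RNAlater for the genes averaging 1 CPM or more in the members, in 4 pathway lists (their receptors, processing enzymes, other neuropeptides, CREB-linked genes) and in 3 marker lists, 1 point per gene, with an orange bar at each list's median, a line at 0 and a dashed line at the median of all genes (-0.18). The members spread from -0.57 to 0.28 around a median of 0.04, and the 3 receptors lie between -0.76 and -0.43.

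Markers of several cell types differed between the libraries too. The counts below stand beside 67.0% of all genes tested that were lower in RNA-Best, and beside the all-gene median log2 ratio of -0.18. All 6 posterior lobe and glial markers were lower in RNA-Best, summing to 83.3 CPM against 150 CPM in RNAlater, with a median log2 ratio of -0.52 and values from -1.28 (Nkx2-1) to -0.31 (Rax). Neuron markers summed to 92.1 and 108 CPM, and of 7 tested 6 were lower, with a median of -0.09 and values from -0.70 (Rbfox3) to 0.10 (Tubb3). All 5 stem and folliculostellate markers (245 and 388 CPM, median -0.58) and all 5 endothelial markers (189 and 412 CPM, median -1.13) were lower in RNA-Best, as were 4 of 5 macrophage markers (103 and 108 CPM, median -0.64), while all 7 hormone genes were higher, with a median of 0.45. Across these lists the ends were Sox9 (-0.92) and S100b (-0.46), Kdr (-1.63) and Emcn (-0.59), Cx3cr1 (-0.82) and C1qa (0.56), and Gh (0.04) and Tshb (0.73). After the median of each gene's length class was subtracted, the list median was -0.27 for posterior lobe and glial markers and 0.03 for neuron markers. In the same setting it was -0.52 for stem and folliculostellate, -0.90 for endothelial and -0.35 for macrophage markers, and 0.30 for hormone genes. No defining marker on these lists was at 0. The part of these differences in the ratios of Vgf, Tac1 and Vip was not tested.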

How the data were processed

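The authors deposited 1 table of estimated counts per gene, 47069 Ensembl identifiers by 2 libraries. The submitters' processing notes name STAR 2.5.1b, featureCounts 1.5.0-p1 and mm10, and the study's methods name GENCODE M8. About 35% of values above 0 were fractional (35.4% and 34.9%), so reads were divided between features by an option not given in the sources used here. All 10 members had whole counts. The design had assumed whole counts, and estimated counts were rounded for intervals and scaling factors. Samples were grouped by the stabilizer in the labels. No sample column was left unused (0). ERCC controls were not used here.

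CPM used column totals. The pseudocount was 0.5 CPM and the filter a mean of at least 1 CPM. Level intervals were exact Poisson and ratio intervals exact conditional binomial. Names, lengths and positions came from GENCODE M21 (GRCm38), to which 46488 identifiers (98.8%) matched, and promoters from RefSeq (GRCm38.p6). Python 3.11.15, numpy 2.4.6, scipy 1.17.1, pandas 2.3.3, matplotlib 3.10.9, R 4.3.3, edgeR 4.0.16 (TMM) and DESeq2 1.42.0 (size factors) were used. The steps were tested on simulated data. Members and gene lists were chosen with earlier results of these data known. Named were all members and receptors, the highest and lowest ratio of each other list, and the 5 other precursors highest per kb. Tac2, Tac4, Pomc, Pcsk2 and Pcsk1n were named as background or sequence matches.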

Additional observations from a re-analysis of the deposited data

How the results depend on the processing

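None of the 8 members past the filter reached 2-fold in either direction under any alternative. Without a filter, Nts and Adcyap1 stayed under 2-fold only with the 0.5 CPM added, as their plain CPM ratios were 0.449 and 0.333 on 4 to 13 counts. Without a filter 5 of 10 members were lower in RNA-Best and their median log2 ratio turned to -0.13, since Nts and Adcyap1 then enter. With a mean of at least 10 CPM, 1 of 3 was lower. With the median of the length class subtracted, 6 of 8 were lower and the median turned to -0.17, with Cartpt at -0.065, Gal at -0.17 and Nmb at -0.20 on the other side of 0. In that setting the list medians were -0.031 for receptors, 0.22 for processing enzymes and 0.067 for CREB-linked genes. With TMM, DESeq2 factors and totals without the 2 most abundant genes, the medians were 0.16, 0.17 and 0.12 for processing enzymes and -0.084, -0.072 and -0.13 for CREB-linked genes, as those scalings move all genes up. Receptors moved to -0.49 with DESeq2 factors and, without a filter, to -0.18, and other neuropeptides without a filter to 0.035. No paired analysis was possible because there is 1 library per stabilizer and the labels give no replicate number, which also leaves no replicate to omit. Depth limits Nts and Adcyap1.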

Other observations

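CREB-linked genes, which encode or regulate the factor that carries cyclic AMP signals to many neuropeptide promoters, were all above 1 CPM. Of 10, 1 was higher and 9 lower in RNA-Best, beside 67.0% of genes tested that were lower. Their median log2 ratio was -0.25, beside -0.18 for all genes tested, and 0.067 after the median of the length class was subtracted. Crem, which encodes a relative of CREB, was the highest in ratio, at 106 CPM in RNA-Best against 98.1 CPM in RNAlater (log2 ratio 0.11, interval 0.05 to 0.16). Crtc3, which encodes a CREB coactivator, was the lowest, at 12.8 CPM against 26.4 CPM (log2 ratio -1.01, interval -1.18 to -0.91).

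The 250 bases before the start of 8 members (10 RefSeq windows, GRCm38.p6) were searched on both strands for the cyclic AMP response element TGACGTCA and for its shorter forms TGACG or CGTCA, which the full element contains. No window was available for Penk and Vgf, so neither was searched. The full element was found in 508 of 32851 windows of all genes (1.55%) and, among the members, in Cartpt, 112 bases before the start. A shorter form was found in 5836 windows (17.8%) and in 6 of 10 member windows, belonging to 5 of 8 members (Tac1, Vip, Nts, Cartpt and Adcyap1). The 2 Adcyap1 windows overlap and share the same site. The Cartpt and Vip stretches are printed with the match in capitals. The Cartpt stretch lies before the RefSeq start used here but inside the GENCODE span of the gene given above, as the 2 annotations place its start differently. A match is a description of the sequence and not of binding.
Cartpt, chr13:99900777-99900806, minus strand: ccggcgggcatTGACGTCAaacggcagcgg
Vip, chr10:5639128-5639154, plus strand: gatcactactgTGACGtctttcgggga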
